A study of Homo sapiens with 12 samples.

Results

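The genes described here carry interleukin-1 (IL-1) signals: the ligands IL1A, IL1B and IL18 with the antagonist IL1RN, the receptor chains IL1R1 and IL1RAP, the adaptor MYD88, and the kinases IRAK4, IRAK1 and IRAK2. These 10 genes were found by symbol among the 58278 genes listed for each library, and all 10 were listed. After the filter for low counts 9 of the 10 were tested, together with 24342 genes in all. IL1RN did not pass the filter.

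IL-1α and IL-1β bind the receptor IL1R1, which then recruits IL1RAP, while the IL1RN product occupies IL1R1 without recruiting it. IL-18 has receptors of its own but uses the same route inside the cell, in which MYD88 gathers IRAK4, IRAK4 activates IRAK1 and IRAK2, and TRAF6 leads on to NF-κB. In kidney injury, tubular epithelial cells are known as a source of IL-18 and as cells that answer IL-1 with chemokines.

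The cells were HK2, a human proximal tubule line that was immortalized in culture. Their RNA was sequenced in 6 groups of 2 biological replicates: untreated cells (Ctrl), cells stimulated with 5 ng/mL TNF-α for 3 h (TN), cells given propionate (15 mM) or butyrate (3 mM) for 24 h before the same TNF-α (PRTN and BUTN), and cells given them for 24 h after it (TNPR and TNBU). Propionate and butyrate are short-chain fatty acids (SCFAs), and as their doses differed, their values are set side by side and were not tested against each other. A group with an SCFA and no TNF-α, or with TNF-α followed by 24 h without an SCFA, was not analysed here, so the SCFA and the later collection cannot be told apart in TNPR and TNBU. In every SCFA group, PRTN and BUTN included, an effect of the SCFA by itself cannot be told from a changed response to TNF-α. In the labels, a general text on treatments names thapsigargin and JQ1, whereas the source name of each treated library gives TNF-α and the SCFA, which are used here.

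The libraries summed to between 27269986 and 33851130 expected counts, the estimated number of reads per gene. Levels are given as CPM, the counts brought to a common library size with TMM factors, and 3 counts, the limit that a count of 0 allows, stood at 0.0867 to 0.112 CPM. Intervals and limits drawn from counts cover counting error only, since reads were not marked as separate molecules. Replicates differed by more than sampling noise in every group (chi-square per gene from 3.17 to 18.1). Of 15 tubular epithelial markers, 9 stood at 1 CPM or more in both libraries of Ctrl and of TN, and 11 or 12 in the SCFA groups, while the proximal tubule receptor LRP2 was at 0 in Ctrl and TN. A gene was called where limma-voom put it past a 1.5-fold change with an adjusted p under 0.05. Each SCFA group was compared with the same TN libraries, so these comparisons are not independent of each other.

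The stretches upstream of 3 members are shown first, because their genes showed the main patterns below: IRAK2 rose with TNF-α, IRAK1 fell in the SCFA groups, and IL1B was detected in every SCFA library but in neither TN library. IRAK1 and IL1B were chosen after their values were seen. Each is the 250 bases before the RefSeq start site on GRCh38.p14, written 5′ to 3′ on the strand of the gene, with every CG dinucleotide in capitals.
IRAK2, chr3:10164669-10164918, plus strand: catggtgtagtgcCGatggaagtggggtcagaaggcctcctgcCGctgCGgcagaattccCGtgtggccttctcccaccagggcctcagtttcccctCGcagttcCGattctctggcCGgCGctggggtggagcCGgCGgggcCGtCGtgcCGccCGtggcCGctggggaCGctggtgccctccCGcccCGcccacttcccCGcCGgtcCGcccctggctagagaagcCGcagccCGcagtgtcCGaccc
IRAK1, chrX:154019903-154020152, minus strand: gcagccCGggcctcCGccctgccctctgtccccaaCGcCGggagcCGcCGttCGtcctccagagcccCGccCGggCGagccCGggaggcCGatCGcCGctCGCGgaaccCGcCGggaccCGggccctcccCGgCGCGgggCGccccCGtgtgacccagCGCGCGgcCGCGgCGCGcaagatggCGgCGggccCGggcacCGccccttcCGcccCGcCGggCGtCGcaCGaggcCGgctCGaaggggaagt
IL1B, chr2:112836780-112837029, minus strand: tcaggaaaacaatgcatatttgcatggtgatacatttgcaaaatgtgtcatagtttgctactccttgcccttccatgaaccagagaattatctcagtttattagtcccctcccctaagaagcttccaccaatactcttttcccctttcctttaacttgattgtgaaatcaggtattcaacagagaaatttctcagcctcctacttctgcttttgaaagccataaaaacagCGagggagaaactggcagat
The stretch of IRAK1 held 43 CG dinucleotides, a number that 1.02% of 35116 promoter windows of the same length reached or passed. IRAK2 had 24, reached by 23.7% of the windows, and the median window had 11. The stretch of IL1B held 1, and 14.7% of windows had as few or fewer. RefSeq windows were found for 9 of the 10 members, all except IL18. Among the members the window of IRAK1 alone held the NF-κB consensus, searched on both strands, against 9.96% of all windows. The AP-1 motif TGANTCA was found in both windows of IL1A and in the first of 3 of IL1RN, against 6.57% of all windows. A match is a description of letters and not a binding site.

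TNF-α alone changed a single member past the threshold. In TN vs Ctrl, IRAK2 was called up and no member was called down by limma-voom, where 0.764% of all tested genes were called up and 0.534% down. The unadjusted p was under 0.05 for 2 members, IRAK2 and IL1RAP, and edgeR and DESeq2 each called 1 of the 9 as well. IL1RAP also had an adjusted p of 0.0438 in limma-voom, but its log2 fold change of 0.30 was under the 1.5-fold limit. IRAK2 (ENSG00000134070.4, chromosome 3, 10164919 to 10243745, plus strand) encodes a kinase known to sustain IL-1 and Toll-like receptor signalling. Its level was 31.6 and 33.2 CPM in the Ctrl libraries and 83.4 and 86.8 CPM in the TN libraries. The groups lay far apart, 1.39 on the log2 scale (SE 0.12, adjusted p = 5.45e-05 in limma-voom), and the call held in all 13 alternative settings. The other 8 tested members had log2 fold changes from -1.53 to 1.24, and the extremes belonged to IL1B and IL1A, which had at most 11 counts in these libraries.

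Against TN, members were called in both directions. The ligands IL18 and IL1B and the receptor chain IL1R1 were higher in all of them, the kinases IRAK1 and IRAK2 were lower, IL1A was called up in 3 of the 4 groups, and IL1RAP, MYD88 and IRAK4 stayed near or under the 1.5-fold limit. Of the 9 tested members, 4 were called up and 3 down in PRTN, where 23.9% of all tested genes were up and 16.7% down. In BUTN 4 were up and 3 down, against 23.1% and 14.8% of all genes. In TNPR the counts were 3 and 2, against 24.9% and 16.9%, and in TNBU they were 4 and 2, against 25% and 16.5%. Called genes were therefore common throughout these libraries. In all 4 SCFA groups 3 members were called up (IL18, IL1B and IL1R1) and 2 called down (IRAK1 and IRAK2). The share of all tested genes called one way in all 4 was not counted, so these 2 numbers have no background beside them. The median log2 fold change of the members was 0.52, 0.47, 0.57 and 0.54 in PRTN, BUTN, TNPR and TNBU, beside 0.09, 0.08, 0.12 and 0.09 over all tested genes.

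**Figure D1:**
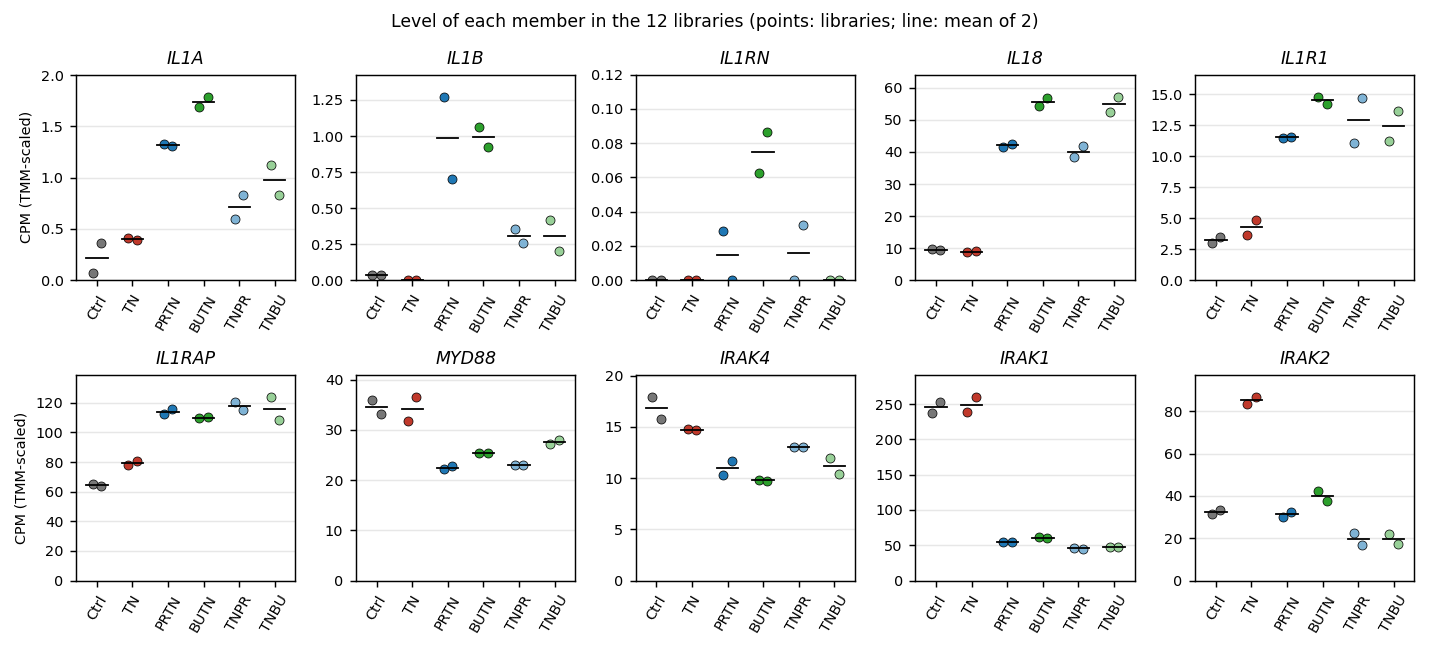
The panels plot the level of each of the 10 members in CPM (vertical axis, linear, from 0) in the 12 libraries, 2 points per group, with a line at the mean of 2. IRAK2 peaks in TN at 83.4 and 86.8 CPM, IRAK1 is at 238 CPM or more in Ctrl and TN and at 61.0 CPM or less in the SCFA groups, and IL18 is under 10 CPM in Ctrl and TN and over 38 CPM in the SCFA groups.

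IL18 was the ligand with the most counts in every library. It encodes a cytokine made as an inactive precursor that epithelial cells hold in store, and it lies on chromosome 11 (ENSG00000150782.11, 112143253 to 112164096, minus strand). Ctrl held 9.58 and 9.29 CPM and TN 8.75 and 8.98 CPM. PRTN held 41.6 and 42.6 CPM, BUTN 54.3 and 56.9 CPM, TNPR 38.3 and 41.9 CPM, and TNBU 52.3 and 57.3 CPM. Every SCFA library lay above every Ctrl and TN library, and both butyrate groups lay above both propionate groups, at different doses. The log2 fold changes against TN were 2.25 for PRTN, 2.65 for BUTN, 2.17 for TNPR and 2.63 for TNBU (SE 0.10 each), and the adjusted p ran from 9.55e-10 to 3.19e-09 in limma-voom. In TN vs Ctrl the value was -0.09 (95% interval -0.34 to 0.16).

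IL1B, the inducible ligand that is typical of activated myeloid cells, was nearly silent without an SCFA. The gene (ENSG00000125538.11) occupies chromosome 2 from 112829751 to 112836816 on the minus strand. It had 1 count in each Ctrl library and 0 in both TN libraries. Counts were 44 and 23 with propionate and 34 and 32 with butyrate before TNF-α, and 12 and 8 with propionate and 12 and 6 with butyrate after it. All 8 SCFA libraries thus lay above all 4 others, although none passed 1.27 CPM. With the 2 TN libraries set to 3 counts each, the rise of IL1B came to at least 8.99-fold for PRTN, 9.06-fold for BUTN, 2.79-fold for TNPR and 2.82-fold for TNBU. The adjusted p from limma-voom ran from 4.39e-05 to 0.00116. IL1B passed the filter for low counts only through its SCFA libraries, so these p-values are not separate support for the rise. Against the 2 counts of Ctrl the ratios were 28.3 (95% counting interval 7.54 to 239) for PRTN, 28.3 (7.52 to 238) for BUTN, 8.77 (2.13 to 77.4) for TNPR and 8.75 (2.09 to 77.7) for TNBU. The last 2 calls were lost when either Ctrl library was left out, with adjusted p from 0.0768 to 0.0924, and that of TNBU also without TNBU replicate 1 (0.0757). The summed level of 10 leukocyte markers was 1.38 to 1.58 CPM in Ctrl and 1.22 to 1.45 in TN. It was 5.80 to 7.24 under PRTN, 5.60 to 7.53 under BUTN, 3.58 to 5.05 under TNPR and 4.10 to 5.48 under TNBU. CD14, the largest part of this sum in every library, stood at 0.633 to 1.00 CPM in Ctrl and TN and at 2.13 to 3.53 CPM with an SCFA. TYROBP had 0 counts in Ctrl and TN and 9 to 34 counts with an SCFA. FCER1G was at 0 to 0.118 CPM in TNPR and TNBU, beside 0.103 and 0.143 CPM in Ctrl. ITGAM overlapped between TN (0.447 and 0.148 CPM) and BUTN (0.255 and 0.498 CPM). CSF1R and LYZ lay above Ctrl and TN in PRTN and BUTN, but not in TNBU replicate 1. The single markers named here were chosen after their values were seen. The pan-leukocyte gene PTPRC was at 0 in both libraries of TN, TNPR and TNBU, with 1 to 5 counts in PRTN and BUTN. CD163 was at 0 in both libraries of Ctrl, TN, TNPR and TNBU. The summed level of 5 fibroblast and endothelial markers was 10.6 to 13.2 CPM in Ctrl and TN and 38.4 to 68.6 CPM in the SCFA groups, but most of it was LUM, at 6.09 to 8.30 CPM and then 31.8 to 60.7 CPM, while DCN was lower with an SCFA (0.431 to 0.608 CPM) than without one (0.681 to 1.117 CPM). The part of these genes in the IL1B result was not tested.

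IL1A (ENSG00000115008.5, chromosome 2, 112773925 to 112784493, minus strand) lies 45.3 kb from IL1B. It encodes the ligand that damaged epithelial cells release as an alarm signal. Ctrl libraries had 2 and 10 counts, TN 11 and 11, PRTN 46 and 43, BUTN 54 and 62, TNPR 20 and 26, and TNBU 32 and 25. The log2 fold change against TN was 1.67 (SE 0.40, limma-voom adjusted p = 0.00346) in PRTN and 2.06 (0.39, 0.000688) in BUTN. In TNPR it was 0.76 (0.44, adjusted p = 0.156), which did not pass. In TNBU it was 1.22 (0.43, adjusted p = 0.0268), a call that DESeq2 (0.0646) and the fits without TN replicate 1 (0.0971), TN replicate 2 (0.111) or TNBU replicate 1 (0.122) did not make. IL1RN, the antagonist gene (ENSG00000136689.18, chromosome 2, 113099315 to 113134016, plus strand), had 0 counts in 8 of 12 libraries and at most 3 counts in any, in BUTN replicate 2. Its 7 counts in all give no comparison at this depth.

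Of the receptor chains, IL1R1 rose in all SCFA groups and IL1RAP stayed just under the fold limit. IL1R1 (ENSG00000115594.11, chromosome 2, 102064544 to 102179874, plus strand) encodes the chain that binds IL-1. It was at 3.02 and 3.48 CPM in Ctrl, 3.65 and 4.88 in TN, 11.5 and 11.5 with propionate and 14.8 and 14.2 with butyrate before TNF-α, and 11.1 and 14.7 with propionate and 11.2 and 13.6 with butyrate after it. Ctrl and TN did not overlap with the SCFA groups, and TNPR spanned both libraries of PRTN. The log2 fold changes against TN were 1.44, 1.77, 1.58 and 1.54 in PRTN, BUTN, TNPR and TNBU, with an SE of 0.19 each and adjusted p from 5.20e-06 to 3.25e-05 in limma-voom.

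IL1RAP (ENSG00000196083.9, chromosome 3, 190514051 to 190659750, plus strand), the accessory chain shared with other IL-1 family receptors, was at 64.1 to 65.3 CPM in Ctrl and 78.1 to 80.9 CPM in TN. PRTN stood at 112 and 116 CPM, BUTN at 109.7 and 110.4 CPM, TNPR at 121 and 115 CPM, and TNBU at 124 and 108 CPM. Its log2 fold changes against TN were 0.52, 0.47, 0.57 and 0.54, with adjusted p from 1.35e-05 to 8.61e-05 in limma-voom, but below 1.5-fold. With library size as the only scaling they were 0.68, 0.62, 0.74 and 0.74, and all 4 were called, but that scaling also moved the median of all genes up by 0.153 to 0.196. Leaving out TNPR replicate 2 (0.60) or TNBU replicate 2 (0.64) also turned the call of that group. Against Ctrl, IL1RAP was called up in all 4 SCFA groups, at log2 fold changes of 0.77 to 0.87.

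**Figure D2:**
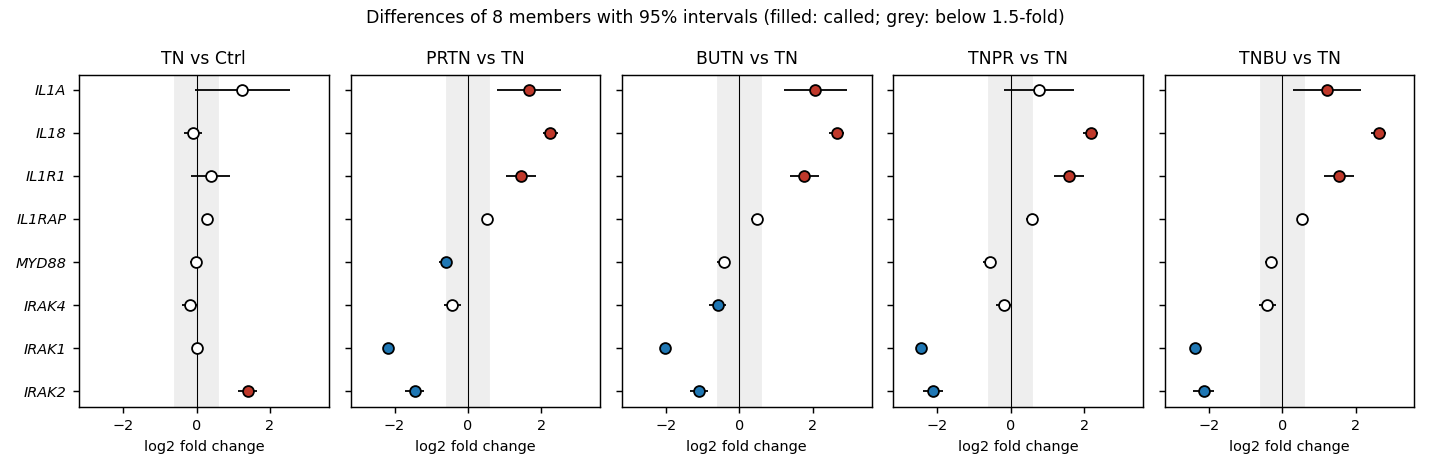
Log2 fold changes (horizontal axes) of 8 members, without IL1B and IL1RN, whose reference counts are near 0, for TN vs Ctrl and for each SCFA group vs TN. Bars are 95% intervals from limma-voom, filled points are called, and the grey band marks under 1.5-fold. IRAK2 is filled on the right in TN vs Ctrl and on the left in all 4 SCFA panels.

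The kinases IRAK1 and IRAK2 were the members that fell furthest. IRAK1 (ENSG00000184216.13, chromosome X, 154010506 to 154019902, minus strand) encodes the kinase that leaves the receptor complex to bind TRAF6. It was at 238 and 252 CPM in Ctrl and at 238 and 260 CPM in TN, so TNF-α left those groups overlapping. In the SCFA groups it was at 54.6 and 54.9 CPM with propionate and 61.0 and 59.99 with butyrate before TNF-α, and 46.4 and 44.6 with propionate and 47.9 and 47.2 with butyrate after it. The log2 fold changes against TN were -2.19, -2.04, -2.45 and -2.39, with an SE of 0.06 each and adjusted p from 1.05e-10 to 3.49e-10 in limma-voom. That is 4.55-fold lower in PRTN and 4.12-fold in BUTN, and 5.47-fold lower in TNPR and 5.24-fold in TNBU. As these are bulk libraries, less RNA per cell and fewer cells with the RNA cannot be told apart.

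IRAK2 was at 30.2 and 32.2 CPM with propionate and 42.1 and 37.4 with butyrate before TNF-α, and 22.7 and 16.7 with propionate and 22.0 and 17.0 with butyrate after it. All 8 libraries lay below TN. Against TN its log2 fold changes were -1.45 (SE 0.12, adjusted p = 5.10e-07), -1.10 (0.12, 5.43e-06), -2.12 (0.13, 3.44e-08) and -2.14 (0.13, 4.49e-08) in limma-voom. Set against Ctrl instead, IRAK2 had a log2 fold change of -0.05 (95% interval -0.33 to 0.23) in PRTN and 0.29 (0.02 to 0.57, adjusted p = 0.0674) in BUTN, and neither passed. In TNPR and TNBU it was called below Ctrl, at -0.73 and -0.74 (adjusted p = 0.000565 and 0.000572 from limma-voom). Each of these calls rested on the lower library of the group: without TNPR replicate 2 the value was -0.51, and without TNBU replicate 2 it was -0.56, both under the fold limit.

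MYD88 and IRAK4, which start the complex, moved less. MYD88 (ENSG00000172936.12, chromosome 3, 38138552 to 38143024, plus strand) was at 36.0 and 33.1 CPM in Ctrl, 31.8 and 36.5 in TN, 22.1 and 22.7 with propionate and 25.4 and 25.5 with butyrate before TNF-α, and 22.9 and 23.0 with propionate and 27.1 and 28.0 with butyrate after it. All SCFA libraries lay below all others, yet the log2 fold changes against TN were -0.60, -0.42, -0.57 and -0.31, and PRTN alone was called (adjusted p = 3.64e-05 from limma-voom). That call was lost without TN replicate 2 (-0.53) or PRTN replicate 1 (-0.58) and with library size as the only scaling (-0.45). TNPR, in turn, was called in 5 of 13 alternatives. IRAK4 (ENSG00000198001.13, chromosome 12, 43758944 to 43798307, plus strand) went from 14.8 and 14.7 CPM in TN to 10.3 and 11.7 with propionate and 9.82 and 9.71 with butyrate before TNF-α, and 13.0 and 13.0 with propionate and 11.9 and 10.4 with butyrate after it. BUTN was called, at -0.59 (SE 0.11, adjusted p = 0.000418 from limma-voom), but not with DESeq2 (-0.58), with relative log expression scaling (-0.58), with library size alone (-0.44) or without BUTN replicate 2 (-0.58). IRAK4 shares 103 exon bases with TWF1 on the opposite strand, and although the library kit was a stranded one, the strand setting of the counting was not given, so a sharing of reads there was not tested.

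The balance between the counts of IRAK2 and IRAK1 shifted with TNF-α and again with the SCFAs. IRAK2 had 13.3 and 13.1 counts per 100 counts of IRAK1 in Ctrl, and 34.98 and 33.3 in TN. The values were 55.3 and 58.6 with propionate and 69.0 and 62.4 with butyrate before TNF-α, and 48.9 and 37.3 with propionate and 45.9 and 36.1 with butyrate after it. All 8 SCFA libraries lay above TN and TN lay above Ctrl, without overlap. For the receptor, the decoy IL1R2 (chromosome 2, 101991960 to 102028544), which binds IL-1 without signalling, lies 36 kb upstream of IL1R1. It had 1.14 and 3.09 counts per 100 counts of IL1R1 in Ctrl, 3.06 and 4.41 in TN, and 25.8 to 35.5 in the 8 SCFA libraries. These ratios are not per length, so only their change between groups is read, and they were not tested.

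**Figure D3:**
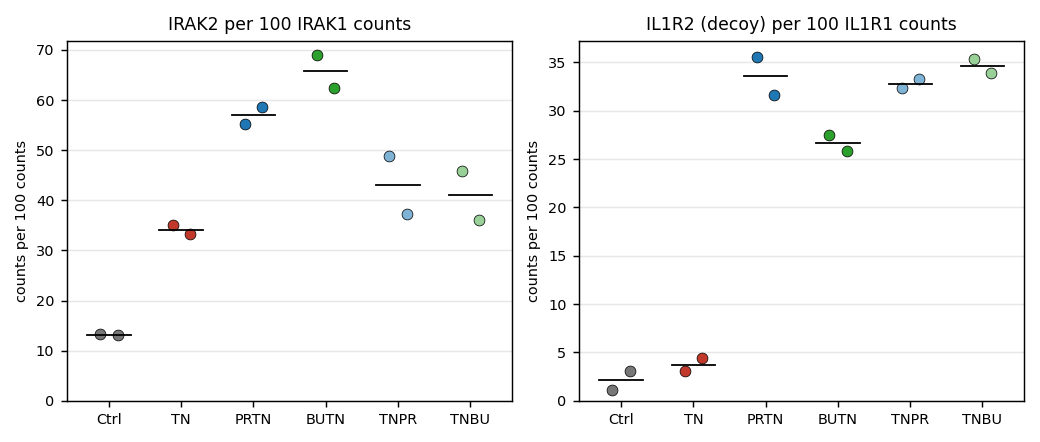
The left panel plots IRAK2 counts per 100 IRAK1 counts and the right panel IL1R2 counts per 100 IL1R1 counts, on linear axes from 0, with 2 points per group and a line at their mean. The left ratio is near 13 in Ctrl, 33.3 and 34.98 in TN and 36.1 to 69.0 with an SCFA, and the right ratio is under 5 without an SCFA and over 25 with one.

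Levels were also divided by kilobases of exon, to set different genes side by side. The length joined the exons of all annotated transcripts (11210 bases for IL1RAP, 2605 for IL18), not only those in use here. Genes with many transcripts can thus come out too low, and the order across genes is approximate. By this measure the order of the members changed too. In TN it was IRAK1 (58.5 CPM per kb), IRAK2 (24.8), MYD88 (8.15), IL1RAP (7.09), IL18 (3.402), IRAK4 (2.02), IL1R1 (0.599) and IL1A (0.199), with IL1B and IL1RN at 0. In BUTN IL18 came first at 21.3 ± 0.694 (SD, n = 2), ahead of IRAK1 at 14.2 ± 0.174, IRAK2 at 11.6 ± 0.973 and IL1RAP at 9.82 ± 0.0460. In TNPR the order was IL18 at 15.4, IRAK1 at 10.7 ± 0.293 and IL1RAP at 10.5 ± 0.320 (SD, n = 2), and the last pair did not differ beyond their spread.

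Against untreated cells, IL1A and IL1RAP joined the members called up in every SCFA group, while IRAK2 was called down in TNPR and TNBU alone. In PRTN 5 members were called up and 3 down, where 22.6% of tested genes were up and 16.9% down, and in BUTN 5 and 2, against 22% and 14.9%. In TNPR and TNBU the counts were 5 and 3 each, against 23.6% up and 16.8% down in TNPR and 23.6% and 16.5% in TNBU. The 5 that rose were IL1A, IL1B, IL18, IL1R1 and IL1RAP in each group. With Ctrl replicate 1 left out, the calls of TNPR came down from 8 to 5, with IL1A at a log2 fold change of 0.92 (adjusted p = 0.124 from limma-voom).

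The same SCFA and dose given after TNF-α was compared with that given before it, which also differ in the time since TNF-α. In TNPR vs PRTN none of the 9 members was called by limma-voom, with 5 at an unadjusted p under 0.05. edgeR called 0, also with 5 at an unadjusted p under 0.05, and DESeq2 called 1, IRAK2, with 3 at an unadjusted p under 0.05. Over all genes 0.0534% were called up and 0.107% down. In TNBU vs BUTN IRAK2 was called down, and 0.0945% of all genes were up and 0.173% down. Its log2 difference was -1.04 (SE 0.14, adjusted p = 0.00613 from limma-voom) with butyrate and -0.68 (0.14, adjusted p = 0.0840) with propionate. The first call was lost without BUTN replicate 1 (adjusted p = 0.1001) or replicate 2 (0.0518) and in a fit of these 4 libraries alone (0.107), and the second was made without TNPR replicate 1 (0.0277). IL1B had 0.309 times as many scaled counts after as before TNF-α with propionate (95% counting interval 0.178 to 0.516) and 0.309 times with butyrate (0.173 to 0.527), with adjusted p of 0.182 and 0.0943 from limma-voom. IL1A gave 0.536 (0.367 to 0.773) and 0.558 (0.399 to 0.772), with adjusted p of 0.337 and 0.230. IL18 differed by -0.07 (95% interval -0.23 to 0.08) and -0.02 (-0.17 to 0.13) on the log2 scale, and its groups overlapped.

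Around the members, 44 further genes of the pathway were listed by role, and 35 were tested. TNF-α alone raised 4 of the 35, all of them targets that IL-1 and TNF-α share: IL6, CXCL2, CXCL8 and CCL20. Against TN, 7 were called up and 8 down in PRTN, 7 and 5 for BUTN, 8 and 8 for TNPR, and 8 and 7 for TNBU, beside the shares of all genes given above. Of the 8 other ligands and binding proteins, 2 passed the filter. IL33, IL36B, IL36RN and IL1F10 had 0 counts in every library. IL36G, a ligand of the IL-36 receptor, was called up in PRTN, TNPR and TNBU, from 0 counts in both TN libraries to 3 to 7 counts. It had 1 count in each BUTN library and 0 to 1 in Ctrl. With the TN libraries set to 3 counts each, the ratio was at least 0.950 in PRTN, 1.56 in TNPR and 1.55 in TNBU. For PRTN the counts thus do not bound a rise. IL36G passed the filter only through SCFA libraries, so its calls are not separate support. IL18BP, the secreted inhibitor of IL-18, was not called in any group and kept to 25.7 to 42.9 CPM, and these genes were chosen after their values were seen.

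Among 4 tested receptors, 3 were called up against TN in each SCFA group: IL1R2, SIGIRR and IL18R1. Of all tested genes 23.1% to 25% were called up. IL1R2 had 1 and 3 counts in Ctrl, 3 and 6 in TN and 113 to 153 in the SCFA libraries, which is 23.5 times as many scaled counts in PRTN as in TN (95% counting interval 12.2 to 52.0), 23.5 times in BUTN (12.2 to 51.9), 25.6 times in TNPR (13.3 to 56.6) and 26.1 times in TNBU (13.5 to 57.8). SIGIRR, which restrains signalling by IL-1 family receptors, rose by log2 fold changes of 0.65 to 0.80, from 5.995 and 7.25 CPM in TN. Its mean was 8.12 CPM in Ctrl and 10.4 to 11.5 CPM in the SCFA groups. IL18R1, the IL-18 receptor chain, had 1 to 3 counts in Ctrl and TN and 6 to 19 with an SCFA, and its partner IL18RAP had at most 3 counts. Between IL1R1 and IL18R1 on chromosome 2 lies IL1RL2, 7.13 kb from IL1R1. It was at 3.398 to 4.66 CPM in TN and the SCFA groups, with log2 fold changes against TN of -0.05 to 0.13. Its mean in Ctrl was lower, at 2.65 CPM. IL18R1, IL18RAP and IL1RL2 were chosen after their values were seen.

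Of the 12 adaptors, regulators and downstream kinases, IRAK3 was called down and PELI2 up in every SCFA group, and PELI3 was also called up in PRTN. IRAK3 encodes the family member that lacks kinase activity and restrains the others. It was at 183 CPM in both Ctrl libraries, 245 and 234 in TN, 60.9 and 57.0 with propionate and 74.0 and 74.7 with butyrate before TNF-α, and 54.8 and 39.1 with propionate and 62.3 and 46.1 with butyrate after it. Its log2 fold changes against TN were -2.02, -1.69, -2.37 and -2.16, beside those of IRAK1 and IRAK2 given above. It shares 244 exon bases with a non-coding gene on the opposite strand. PELI2, a ubiquitin ligase of IRAK proteins, had 1 and 4 counts in TN and 53 to 80 with an SCFA, or 21.4 (8.95 to 67.1) to 22.8 (9.49 to 71.3) times as many scaled counts. The remaining 9, among them TRAF6, TOLLIP and MAP3K7, were not called in any SCFA group against TN, and those named here were chosen after their values were seen.

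Of 8 tested genes for the processing and release of IL-1β and IL-18, 3 were called down against TN in PRTN. In BUTN and in TNPR 1 was up and 1 down, and in TNBU 1 was up. The shares over all genes are those given above. CASP1, the protease that cleaves both precursors, and NLRP3, a sensor that activates it, had 0 to 3 counts per library. CASP4, an inflammatory caspase that senses lipopolysaccharide inside cells, was called down in PRTN (-1.41), BUTN (-0.74) and TNPR (-0.70), with -0.17 in TNBU. GSDMD, which forms the release pore, was called down in PRTN (-0.72), as was the adaptor PYCARD (-0.82). CASP5 was called up in BUTN, TNPR and TNBU from 0 counts in TN to 6.07 counts at most, and no fold is given. It was at 0 in Ctrl too and passed the filter only through SCFA libraries, so its calls are not separate support. These genes were chosen after their values were seen.

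Of the 9 shared targets, those called up and down against TN numbered 1 and 4 for PRTN, 2 and 3 for BUTN, and 2 and 6 for TNPR and TNBU each. Of all tested genes 23.1% to 25% were called up and 14.8% to 16.9% down. IL6 was at 112 and 109 CPM in TN and between 9.69 and 17.3 CPM with an SCFA, with log2 fold changes of -2.78 to -3.40. CXCL2, a neutrophil chemokine, fell by log2 fold changes of -1.43 to -2.79. CXCL8 was called down in PRTN, TNPR and TNBU (-0.68, -1.14 and -1.07) and not in BUTN (-0.49). CCL20, the chemokine of CCR6-bearing cells, went the other way, from 212 and 216 CPM in TN to between 596 and 1041 CPM, with log2 fold changes of 1.68 to 2.21.

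**Figure D4:**
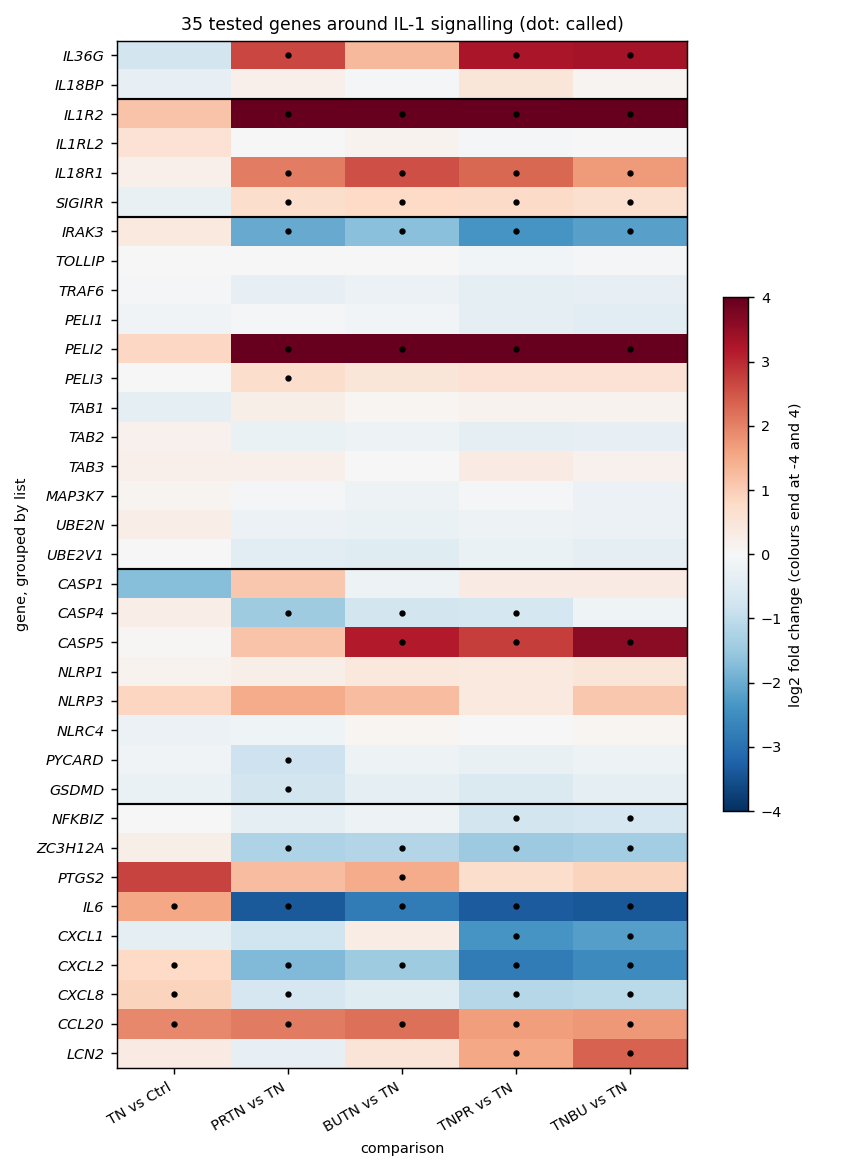
Each row is 1 of the 35 tested pathway genes, grouped from top to bottom as ligands and binding protein, receptors, adaptors and kinases, processing and release, and shared targets. Columns are TN and the SCFA groups as compared, colour is the log2 fold change with the scale ending at -4 and 4, and a dot marks a call. IL1R2 and PELI2 are dark red and IRAK3 and IL6 blue in the 4 SCFA columns, while CCL20 is red in all 5.

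The genes whose log2 CPM followed IRAK2 most closely over the 12 libraries, among 13832 compared, were EFNA1 (Pearson r = 0.986), MAP3K8 (0.983) and TNFRSF10B (0.983). Each was highest in TN replicate 2, as IRAK2 was, and lowest in TNPR replicate 2 or TNBU replicate 2. For IL1B, among 13833 genes, ITGA1 (0.991) and OLFML2A (0.987) came first, and each was lowest in TN replicate 1. The libraries share groups of 2, so these values describe likeness across treatments and carry no test.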

How the data were processed

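Polyadenylated RNA of 12 HK2 libraries was sequenced with a stranded kit. Per the submitters' processing notes, FastQC 0.11.5 and STAR 2.6.1a were used, the latter to map reads to GRCh38, and the authors deposited expected counts per gene, which RSEM estimated on GENCODE release 26. The deposited expected counts were neither scaled nor filtered, and 19.3% of all values were not whole. The RSEM version and the strand setting of its counting are not given in the sources used here.

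Counts were tested without rounding in R 4.3.3 with limma 3.58.1 (voom) and TMM factors from edgeR 4.0.16 (0.913 to 1.06). For the filter 1 was added to each count, the geometric mean over libraries was taken and 1 subtracted again. Values under 1 removed 33936 of 58278 genes. IL1B, IL36G and CASP5, with at most 1 count in each Ctrl and TN library, passed only through the SCFA groups. The model held a mean for each of the 6 groups (prior degrees of freedom 6.12), and p-values of the 24342 genes left were adjusted by Benjamini-Hochberg. The script was tested on simulated data. Positions and exon lengths come from GENCODE release 44 and promoter windows from RefSeq on GRCh38.p14.

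The members, pathway lists and marker lists were chosen with earlier results of these data known. Named were all members, pathway genes called in TN vs Ctrl, per list up to 2 with the largest change against TN among genes called one way in all 4 SCFA groups at 1 CPM or more, and the 3 genes most like IL1B and IRAK2 (1 of them is not reported here); any other gene is marked in the text as picked with its values known. edgeR and DESeq2 1.42.0 ran on counts rounded to whole numbers. Other alternatives were scaling by relative log expression or library size, a count of 1 in any library as the sole filter (37730 genes), filterByExpr of edgeR (19420 genes), fits of 2 groups alone, the replicate number as a block, a fold limit of 2 and leaving out each replicate. A planned ratio of IL1RN to IL1A and IL1B was not made, because IL1RN was at 0 in 8 of 12 libraries.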

Additional observations from a re-analysis of the deposited data

Results flagged for a closer look

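For 3 genes the level differed between an SCFA given after and before TNF-α, in 4 tests. Each test was by limma-voom with adjustment over all tested genes. The 3 came from the 9 members and the 35 other pathway genes tested. Over all genes 0.0534% were called up and 0.107% down in TNPR vs PRTN, and 0.0945% and 0.173% in TNBU vs BUTN. IRAK2 was lower in TNBU than in BUTN, by a log2 difference of -1.04 (standard error 0.14, adjusted p = 0.00613). Both TNBU libraries (22.0 and 17.0 CPM) lay below both BUTN libraries (42.1 and 37.4 CPM). CXCL2 was lower in TNBU than in BUTN, with a log2 difference of -1.14 (adjusted p = 0.0330), at 57.4 and 40.1 against 106 and 105 CPM. The CXCL2 call was made in 9 of 13 alternatives and lost in a fit of these 4 libraries alone (adjusted p = 0.121) and without BUTN replicate 1 (0.273), BUTN replicate 2 (0.216) or TNBU replicate 2 (0.163), and that of IRAK2 was made in 10 of 13.

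LCN2, which encodes the kidney injury marker lipocalin-2, was higher when the SCFA came after TNF-α. In TNPR it was at 468 and 473 CPM against 124 and 132 CPM in PRTN, a log2 difference of 1.88 (adjusted p = 9.49e-09). In TNBU it was at 794 and 839 CPM against 228 and 228 CPM in BUTN, a log2 difference of 1.84 (adjusted p = 6.54e-09). Both LCN2 calls were made in all 13 alternatives. Groups given an SCFA after TNF-α were also collected later after TNF-α, and the order and that time cannot be told apart. Groups of 2 are too small for the test of single outlying libraries.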

How the results depend on the processing

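Of the log2 fold changes of single members under the alternatives, 1214 kept their direction and their side of the threshold, 49 lost and 13 gained a call, and 11 changed sign. With a fold limit of 2, the members called came to 5 in place of 8 in PRTN, TNPR and TNBU vs Ctrl, the other pathway genes to 2 in place of 4 in TN vs Ctrl and to 8 in place of 13 in BUTN vs Ctrl. DESeq2 called 1 member and 2 other pathway genes in TNPR vs PRTN, in place of 0 and 1. A fit of BUTN and TNBU alone called 0 members (4 at an unadjusted p under 0.05) and 1 other pathway gene, in place of 1 and 2. Leaving out a replicate moved the members called to 5 in TNPR vs Ctrl (without Ctrl replicate 1), to 0 to 1 in TNBU vs BUTN and 0 to 1 in TNPR vs PRTN, and the other pathway genes to 1 to 4 and 1 to 3 in these last comparisons. Changes of sign concerned values near 0 with no call. With library size alone they were -0.032 for IRAK1 in TN vs Ctrl, 0.046 for IRAK2 in PRTN vs Ctrl and 0.021 for IL18 in TNBU vs BUTN. With a replicate left out, the values ran from -0.12 to 0.082 for MYD88 and from -0.040 to 0.086 for IRAK1 in TN vs Ctrl, from -0.087 to 0.026 for IL18 and from -0.041 to 0.17 for IL1RAP in TNBU vs BUTN, and from -0.055 to 0.34 for IL1R1 in TNPR vs PRTN. The cause was not tested. Over all tested genes, the deviations of same-numbered libraries correlated at -0.0458 to 0.109 over 15 pairs of groups, 1 over 0.1. A value over all genes does not show whether single genes deviated together. In both TNPR and TNBU, IRAK2 was lower in replicate 2 than in replicate 1, and a shared batch was not tested. With the replicate number as a block, 0 of 121 results changed call or direction, and IRAK2 in TN vs Ctrl gave 1.40. Where 1 library of a group was left out, the lone library was assumed to vary like the other groups. Depth limits IL1RN, IL1A and IL1B, whose counts stayed at or under 62 per library.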
